A study of Mus musculus with 4 samples.

Results

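The genes described here encode the mitochondrial ribosome and the factors that work on it. They were chosen by symbol: every gene named Mrpl or Mrps followed by digits, with a letter allowed after the digits, plus the translation factors Mtif2, Mtif3, Tufm, Tsfm, Gfm1, Gfm2, Mrrf, Mtrf1 and Mtrf1l. The rule found 87 of the 22808 genes in the expression table: 49 named for the large subunit (Mrpl), 29 for the small subunit (Mrps) and 9 factors. Subunits below follow these symbols, and the place of each protein in the particle was not checked. The higher level of Mtif2 in testis without PIWIL1 was already known from these libraries when the set was chosen. The question was whether that rise was shared by the machinery Mtif2 belongs to.

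RNA was sequenced from whole testes of Piwil1-/- mice and of Piwil1+/- mice at postnatal day 23, with 1 library per genotype. PIWIL1, also called MIWI, is a piRNA-binding PIWI protein found in male germ cells from meiosis onward. Both groups carry the Piwil1 mutation, on both copies in Piwil1-/- and on a single copy in Piwil1+/-, so neither is a wild type. The labels name neither the strain of these mice nor the kind of mutant allele, and do not say how many animals went into a library. The other 2 libraries of the study, small RNAs bound to PIWIL1 in adult C57BL/6J testis, were not used here.

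Mitochondria make a small set of respiratory chain proteins from their own genome on their own ribosomes. The proteins of these ribosomes and the factors that load, drive and recycle them are all encoded in the nucleus and imported. In male germ cells the mitochondria change shape during meiosis, when they gather near the germ granules in which piRNA proteins lie, and again in spermatids, when they line up along the sperm midpiece.

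Levels are given as deposited, in RPKM, that is, reads scaled to gene length and to the size of the library. Library totals were inferred from the values and from matches to RefSeq gene spans, within a preset range. They came to 100254357 reads in the Piwil1-/- library and 104014686 in the Piwil1+/- library. Piwil1 was listed at 0 in Piwil1-/- testis and stood at 26.2 RPKM in Piwil1+/- testis, which fits the labels. With 1 library per genotype there is no replicate check and no p-value. A fold is the ratio of the RPKM values, Piwil1-/- over Piwil1+/-. Its interval is a 95% exact binomial interval from the smallest whole reads that give both values. It covers counting error only, not differences between animals, and PCR copies make it too narrow. The true reads can be a multiple of the smallest ones, which makes it too wide. Log2 ratios are differences of log2 (RPKM + 1), in which low genes show less than their full change. In whole testis, fewer cells of a type and less RNA per cell cannot be told apart.

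Of the 87 members, 69 reached an RPKM of 1 in either library, and the counts that follow are over these. Mtif2 was the only member at least 2-fold higher in Piwil1-/- testis by the log2 (RPKM + 1) ratio, and no member was at least 2-fold lower. Over all 9951 genes at that level, 0.231% were at least 2-fold higher and 1.96% at least 2-fold lower. The set was chosen because Mtif2 was higher, so only the other 68 members bear on the question. Of these, by the log2 (RPKM + 1) ratio, 0 were at least 2-fold higher and 1 at least 1.5-fold higher. Without the added 1 RPKM, Mrpl27 was past 2-fold too, from at least 34 reads in Piwil1-/- and 13 in Piwil1+/-. By the same log2 (RPKM + 1) ratio, the members at least 1.5-fold higher were Mtif2 and Mrpl27, beside 1.42% of all genes, and again no member was lower, beside 5.21% of all genes. Without the added 1 RPKM, 5 members were at least 1.5-fold higher, Mrpl52, Mrpl19 and Mrps28 being the others. So were 316 genes in all, against 141 with the added 1 RPKM. Mrpl27, Mrpl52 and Mrps17 reached 1 RPKM only in Piwil1-/- testis, so the filter took them in through the library where they were higher. The 68 members other than Mtif2 had log2 ratios from -0.36 to 0.83 with a median of 0.04. The median over all genes was 0.01. Of these 68 members, 61 lay within 1.25-fold of equal level by the log2 (RPKM + 1) ratio, as did 83.9% of all genes. Mrps16 and Mrpl54 were within it by that ratio but not by the plain RPKM ratio.

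**Figure D1:**
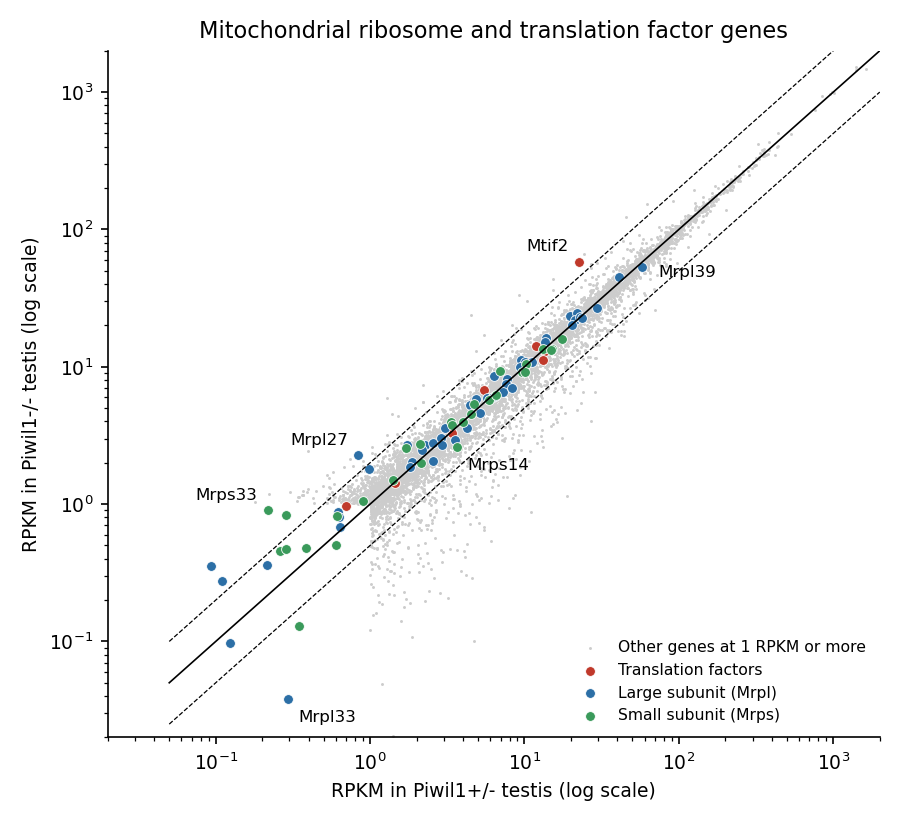
Levels of the members above 0 in Piwil1-/- testis (vertical axis) against Piwil1+/- testis (horizontal axis), in RPKM on log scales, over other genes at 1 RPKM or more in grey. The solid line is equal level and the dashed lines 2-fold. Mtif2, at 58.4 against 22.5 RPKM, lies above the upper dashed line, while the other members above 3 RPKM follow the line of equal level.

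Mtif2 encodes the initiation factor that brings the formylated initiator methionyl-tRNA to the small subunit of the mitochondrial ribosome. It stood at 58.4 RPKM in Piwil1-/- testis and 22.5 RPKM in Piwil1+/- testis, a fold of 2.60 with an interval of 2.44 to 2.76. At least 3612 and 1444 reads stand behind the 2 levels. Its log2 ratio of 1.34 was the 10th highest of the 9951 genes. The next member, Mrpl27, was 42nd. By level, Mtif2 was the highest of the 69 members in Piwil1-/- testis and the 6th highest in Piwil1+/- testis. It made up 48.7% of the summed RPKM of the 9 factors in Piwil1-/- and 27.2% in Piwil1+/-.

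The gene (ENSMUSG00000020459.14) spans 29525352 to 29545452 on chromosome 11 of GRCm38.p6 and overlaps no other RefSeq gene. The nearest measured gene after it, Rps27a, which encodes a ubiquitin fusion with a protein of the cytosolic ribosome, begins beyond a gap of 389 bp. Rps27a stood at 50.7 RPKM in Piwil1-/- and 40.8 RPKM in Piwil1+/- testis, a fold of 1.24 (1.17 to 1.32). Clhc1, the next gene on that side, had a fold of 1.09 (1.05 to 1.13). Before Mtif2, Ccdc88a, which encodes the actin-binding protein girdin, had a fold of 1.01, with 87.1 RPKM in Piwil1-/- and 86.3 RPKM in Piwil1+/-. Prorsd1, 10318 bp away, was low and went the other way, at 0.257 RPKM in Piwil1-/- against 0.770 RPKM in Piwil1+/- from at least 18 and 56 reads. None of the 4 neighbours was near the fold of Mtif2 on the higher side.

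**Figure D2:**
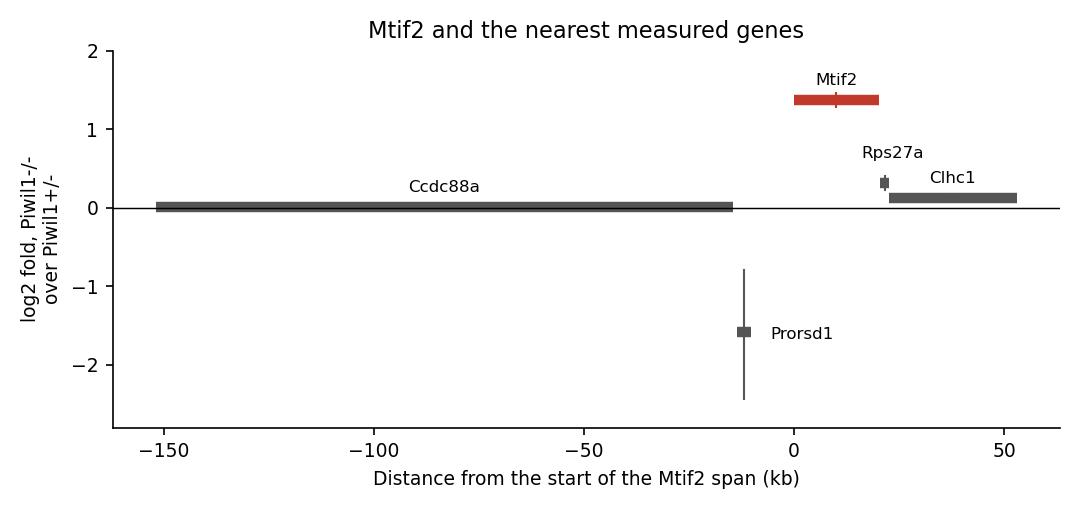
Log2 fold, Piwil1-/- over Piwil1+/- (vertical axis), of Mtif2 and the nearest 2 measured genes on each side, each drawn as a bar along its RefSeq span, with distance from the start of the Mtif2 span in kb on the horizontal axis. Thin vertical lines are 95% counting intervals. Mtif2 alone stands above a fold of 2, and Rps27a, 389 bp away, has a fold of 1.24.

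The promoter of Mtif2 is shown because it carries a sequence that many members share. RefSeq windows of 300 bases, from 250 before to 50 after an annotated start, were at hand for 77 of the 87 members. They were searched on both strands for 5 short motifs. The ETS core CCGGAAG, bound by ETS family factors, occurred in 29 of the 77 members, 37.7%, and in 9.93% of the 27025 genes with a window, non-coding genes included. The NRF1 core, GCGC, any base, then TGCGC, occurred in 14 members, 18.2%, and in 5.19% of all genes. The YY1 motif AAGATGGCG occurred in 8 members, 10.4%, and in 1.64% of all genes. The MYB core CAACTG, the core site of A-MYB, a regulator of pachytene genes, was in 9 members, 11.7%, and in 15.4% of all genes. The cyclic AMP response element TGACGTCA, bound by CREM, was in 2 members, 2.60%, and in 2.03% of all genes. In the Mtif2 window only the ETS core matched, on both strands around the start. Of the 60 members with a window and an RPKM of 1 or more, the 20 with an ETS core had a median log2 ratio of 0.04 and the 40 without one a median of -0.01. Next to Mtif2 among the members with an ETS core stood Mrpl27, at a log2 (RPKM + 1) ratio of 0.83, though its plain RPKM ratio of 2.71 was as large as that of Mtif2.

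The annotated start used for Mtif2 lies inside the gene's span, downstream of its first base. The 4 sequences are from RefSeq, build GRCm38.p6, on the plus strand, 5′ to 3′, and end 30 bases after the annotated start; capitals mark motif matches. Mtif2 is chr11:29526147-29526426. Mrpl27, the second highest member, is chr11:94653691-94653820. Gfm2, the factor next to Mtif2 in ratio, is chr13:97137837-97137966, and Mrps14, the lowest member, is chr1:160195115-160195244.
Mtif2: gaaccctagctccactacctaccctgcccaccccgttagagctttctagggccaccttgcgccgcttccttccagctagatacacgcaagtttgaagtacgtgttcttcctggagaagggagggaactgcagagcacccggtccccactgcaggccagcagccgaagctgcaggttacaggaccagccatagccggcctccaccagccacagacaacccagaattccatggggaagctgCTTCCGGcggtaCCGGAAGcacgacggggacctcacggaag
Mrpl27: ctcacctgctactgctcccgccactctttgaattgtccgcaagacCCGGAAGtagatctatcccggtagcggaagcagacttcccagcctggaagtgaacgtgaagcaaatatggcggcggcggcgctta
Gfm2: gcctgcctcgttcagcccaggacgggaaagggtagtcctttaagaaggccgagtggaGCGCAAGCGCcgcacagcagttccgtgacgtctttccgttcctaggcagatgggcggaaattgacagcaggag
Mrps14: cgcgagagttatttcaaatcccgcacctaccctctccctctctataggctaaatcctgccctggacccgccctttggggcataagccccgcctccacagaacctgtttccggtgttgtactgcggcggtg
Mtif2 holds the ETS core on each strand, with the reverse copy beginning 11 bases before the start. Mrpl27 holds it 55 bases before the start, Gfm2 holds an NRF1 core on the reverse strand 43 bases before the start, and none of the 5 motifs was in the printed Mrps14 stretch.

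The other initiation factor did not match the fold of Mtif2. Mtif3, which keeps the subunits apart before initiation, stood at 14.2 RPKM in Piwil1-/- and 11.9 RPKM in Piwil1+/- testis, a fold of 1.19 (1.15 to 1.24). The level of Mtif2 was 4.10 times that of Mtif3 in Piwil1-/- testis and 1.89 times in Piwil1+/- testis, compared per length in RPKM.

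The elongation factors were near equal level or lower. Tufm, which delivers aminoacyl-tRNA to the ribosome, stood at 11.2 RPKM in Piwil1-/- and 13.1 RPKM in Piwil1+/-, a fold of 0.852 (0.801 to 0.906). Tsfm, which recharges Tufm with GTP, stood at 1.42 and 1.46 RPKM in Piwil1-/- and Piwil1+/-, with a fold of 0.971 (0.735 to 1.28). Gfm1, the translocase that moves the ribosome along the mRNA, stood at 10.8 RPKM in Piwil1-/- and 10.6 RPKM in Piwil1+/-, with a fold of 1.02 (0.911 to 1.14). The counting intervals of Tsfm and Gfm1 include equal level, and that of Tufm lies below it.

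The 4 factors of release and recycling had folds from 0.963 (Mrrf) to 1.38 (Mtrf1l). Gfm2, which splits the ribosome after termination together with Mrrf, stood at 6.73 RPKM in Piwil1-/- and 5.49 RPKM in Piwil1+/-, a fold of 1.23 (1.19 to 1.27). Mrrf, the ribosome recycling factor, stood at 13.1 RPKM in Piwil1-/- and 13.6 RPKM in Piwil1+/-, a fold of 0.963 (0.894 to 1.04). Its partner Gfm2 was thus higher while Mrrf was at equal level within counting error. Mtrf1, of the release factor family, stood at 3.30 RPKM in Piwil1-/- and 3.41 RPKM in Piwil1+/-, a fold of 0.968 (0.848 to 1.10). Mtrf1l, the release factor for the standard stop codons, was under 1 RPKM in both libraries, at 0.969 in Piwil1-/- and 0.703 in Piwil1+/-, a fold of 1.38 (1.03 to 1.86). Without Mtif2, the summed level of the factors was 61.6 RPKM in Piwil1-/- and 60.2 RPKM in Piwil1+/-, a ratio of 1.02. The level of Mtif2 was the single large difference among the 9.

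**Figure D3:**
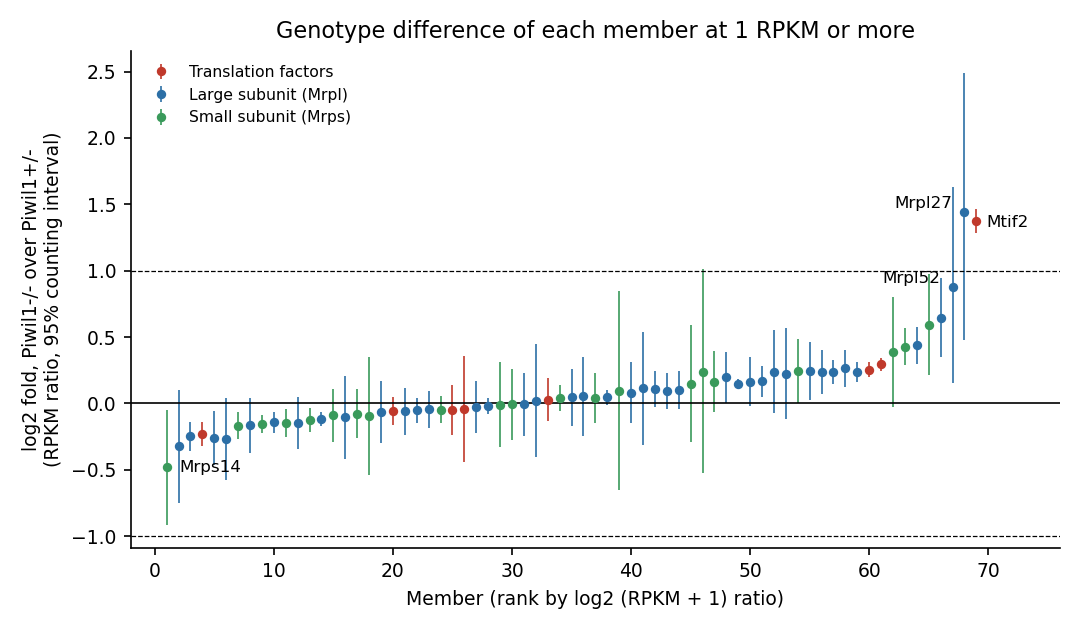
Log2 fold of each of the 69 members at 1 RPKM or more, Piwil1-/- over Piwil1+/- (vertical axis), ranked by the log2 (RPKM + 1) ratio (horizontal axis), with 95% counting intervals as vertical lines. Mtif2 has a narrow interval (2.44 to 2.76 as a fold), while Mrpl27, with at least 34 and 13 reads, has one from 1.40 to 5.60.

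Among proteins of the ribosome itself, only Mrpl27 was past 1.5-fold by the log2 (RPKM + 1) ratio. The 40 large subunit members at 1 RPKM or more had a median log2 ratio of 0.06, with 24 above 0. The 21 small subunit members had a median of -0.01, with 10 above 0. Over all genes, 51.2% lay above 0. The summed RPKM of the large subunit genes was 446.7 in Piwil1-/- and 431.9 in Piwil1+/-, and that of the small subunit genes 144.8 in Piwil1-/- and 144.7 in Piwil1+/-. The 36 proteins whose numbers follow the families of bacterial ribosomes (up to 36 in the large and 21 in the small subunit) had a median of 0.05, and the 25 with higher numbers, mostly found only in mitochondria, one of 0.04. Counting intervals lay wholly above 1 for 12 and wholly below 1 for 4 of the 40 large subunit members, and above 1 for 3 and below 1 for 5 of the 21 small subunit members. Subunits were taken from the symbols, Mrpl or Mrps, and the difference between them was not tested.

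Among the Mrpl and Mrps genes, the highest levels in RPKM were those of Mrpl39, Mrpl24 and Mrpl1, all of the large subunit. Dap3, a small subunit protein under another symbol, was higher still, at 94.8 RPKM in Piwil1-/- and 94.1 RPKM in Piwil1+/-. Mrpl39 stood at 53.4 RPKM in Piwil1-/- and 57.9 RPKM in Piwil1+/-, a fold of 0.922 (0.889 to 0.957). Mrpl24 stood at 45.3 RPKM in Piwil1-/- and 40.9 RPKM in Piwil1+/-, a fold of 1.11 (1.08 to 1.13). Mrpl1 stood at 26.6 RPKM in Piwil1-/- and 29.4 RPKM in Piwil1+/-, a fold of 0.906 (0.858 to 0.955). These 3 rest on many reads, from at least 2539 and 2909 for Mrpl1 to at least 12665 and 11885 for Mrpl24, so their intervals exclude equal level at small differences. Among the 69 members, 18 had an interval wholly above a fold of 1, 26.1%, and 10 wholly below it, 14.5%, beside 27.5% and 26.9% of the 9944 genes with read numbers. Without Mtif2, 17 of 68 lay wholly above 1.

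The 5 highest ribosomal protein ratios were those of Mrpl27, Mrpl52, Mrpl19, Mrps28 and Mrpl38. Mrpl27 stood at 2.28 RPKM in Piwil1-/- and 0.839 RPKM in Piwil1+/-, a fold of 2.71 (1.40 to 5.60) from at least 34 and 13 reads. Its RPKM ratio was thus as large as that of Mtif2. These reads go with the smallest fitting length, 149 bases. The true reads can be more and the interval narrower. Mrpl27 also has a listed pseudogene, and its span overlaps Eme1, so its reads could be shared with other loci. Mrpl52 stood at 1.80 RPKM in Piwil1-/- and 0.980 RPKM in Piwil1+/-, a fold of 1.84 (1.11 to 3.09). Mrpl19 stood at 2.70 RPKM in Piwil1-/- and 1.73 RPKM in Piwil1+/-, a fold of 1.56 (1.27 to 1.92). For Mrps28 the levels were 2.58 RPKM in Piwil1-/- and 1.71 RPKM in Piwil1+/-, with an interval of the fold from 1.16 to 1.96. Mrpl38, the best covered of the 5 with at least 986 and 755 reads, stood at 8.60 RPKM in Piwil1-/- and 6.35 RPKM in Piwil1+/-, a fold of 1.35 (1.23 to 1.49). The first 4 were below 3 RPKM in both libraries.

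The 5 lowest ratios were smaller in size. Mrps14 stood at 2.62 RPKM in Piwil1-/- and 3.66 RPKM in Piwil1+/-, a fold of 0.716 (0.530 to 0.964). Mrpl54 and Mrpl18 had folds of 0.800 (0.594 to 1.07) and 0.830 (0.670 to 1.03), intervals that include equal level. Mrpl30, at 6.97 RPKM in Piwil1-/- and 8.28 RPKM in Piwil1+/-, had a fold of 0.842 (0.782 to 0.907). Mrpl44, at 3.56 RPKM in Piwil1-/- and 4.27 RPKM in Piwil1+/-, had one of 0.835 (0.724 to 0.961). Mrps17 lies on chromosome 5, 959976 bp from Piwil1, nearer to the mutated locus than any other member. It stood at 1.06 RPKM in Piwil1-/- and 0.894 RPKM in Piwil1+/-, a fold of 1.18 (0.695 to 2.02), so no difference was detectable at this depth.

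Subunits of a single particle differed widely in RPKM. Among the 61 ribosomal protein genes at 1 RPKM or more, the highest level was 50.6 times the lowest in Piwil1-/- and 69.0 times in Piwil1+/-. Levels went with gene length, read as the smallest length that gives whole reads. The 18 members under 400 bases had a median of 0.978 RPKM in Piwil1-/- and 0.725 RPKM in Piwil1+/-. The 37 members of 400 to under 800 bases had medians of 3.94 RPKM in Piwil1-/- and 3.54 RPKM in Piwil1+/-, and the 31 of 800 bases or more had 9.33 RPKM in Piwil1-/- and 9.29 RPKM in Piwil1+/-. Over all genes above 0 the same classes had medians of 1.11, 1.36 and 2.06 RPKM in Piwil1-/- and 1.21, 1.47 and 2.10 RPKM in Piwil1+/-. A true length can be a multiple of the fitted one, more so for genes with few reads, and what the length classes owe to this or to the counting was not tested.

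**Figure D4:**
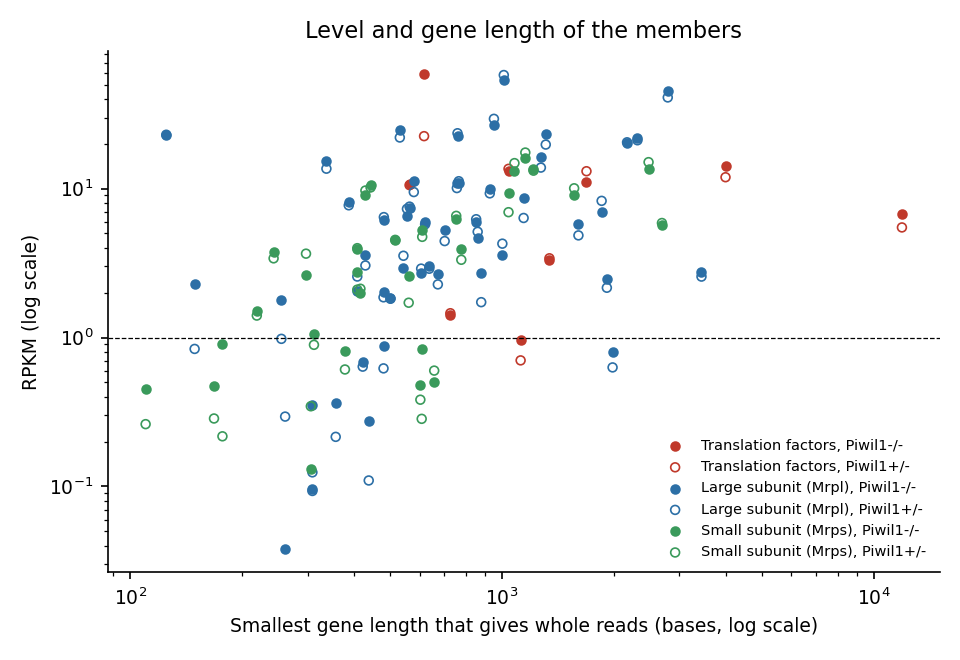
RPKM of the members above 0 (vertical axis, log scale) against the smallest gene length that gives whole reads (horizontal axis, bases, log scale), filled for Piwil1-/- and open for Piwil1+/-. The dashed line is 1 RPKM. Members under 400 bases have a median of 0.978 RPKM in Piwil1-/- and 0.725 in Piwil1+/-, and those of 800 bases or more 9.33 and 9.29.

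The 18 members below 1 RPKM in both libraries were Mtrf1l and 17 ribosomal protein genes. For those above 0, the smallest whole reads that fit their values were at most 160 in a library, and the true reads can be more. Mrpl34 was listed at 0 in both libraries. Why it was listed at 0 was not tested. Of the other 17, 13 had a log2 ratio above 0 and 4 below 0. Among the 4803 genes below 1 RPKM in both libraries and above 0.1 RPKM in either, 52.8% were above 0. By the log2 (RPKM + 1) ratio the highest members were Mrps33 and Mrps12. Mrps33 stood at 0.902 RPKM in Piwil1-/- and 0.217 RPKM in Piwil1+/- (fold 4.15, interval 1.34 to 17.1, from at least 16 and 4 reads). Mrps12 stood at 0.837 RPKM in Piwil1-/- and 0.285 RPKM in Piwil1+/- (fold 2.94, 1.69 to 5.35). By the plain RPKM ratio Mrpl57 came before Mrps12, with a fold of 3.80 (1.005 to 21.2) from at least 11 and 3 reads. Counting intervals wholly above 1 were found for 5 of the 17, beside 14.0% of such genes, and for Mrpl33 the interval lay below 1, at 0.00292 to 0.967 from at least 1 and 8 reads. Mrps33, Mrps12, Mrpl57 and Mrpl33 were named after their values were seen. Summed over the 17, the level was 9.05 RPKM in Piwil1-/- and 6.42 RPKM in Piwil1+/-.

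Other genes of mitochondrial gene expression were read from lists of known members, at 1 RPKM or more in either library. Of 4 mitochondrial ribosomal proteins under other symbols, none was past 1.5-fold, with log2 ratios from -0.09 (Ptcd3) to 0.14 (Aurkaip1) and a median of -0.03. Of 14 mitochondrial aminoacyl-tRNA synthetases and amidotransferase subunits, which charge the tRNAs, none was past 1.5-fold, from -0.21 (Mars2) to 0.17 (Fars2), with a median of 0.01. Of 7 other translation factors, none was past 1.5-fold, and the median was 0.03. The lowest was Slirp at -0.24, a partner of Lrpprc in holding mitochondrial mRNAs. The highest was Taco1 at 0.23, an activator of the synthesis of a cytochrome oxidase subunit. Taco1 reached 1 RPKM in Piwil1-/- only, at 1.12 RPKM against 0.804 RPKM in Piwil1+/-. The genes nearest in function to the members thus stayed within the same range.

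Among assembly and transcription factors, 1 gene of each list was past 1.5-fold by the log2 (RPKM + 1) ratio, beside 1.42% of all genes on the higher and 5.21% on the lower side. Of 17 assembly factors, Mtg2, a GTPase of large subunit assembly, was past 1.5-fold on the higher side. It stood at 3.75 RPKM in Piwil1-/- and 1.91 RPKM in Piwil1+/-, a fold of 1.96 (1.66 to 2.34). The lowest of that list was Tfb1m, which methylates the small ribosomal RNA, at 7.74 RPKM in Piwil1-/- and 11.3 RPKM in Piwil1+/-, a fold of 0.683 (0.624 to 0.747); the list median was -0.09. Of 10 genes of mitochondrial transcription and RNA processing, Tfam, which packages mitochondrial DNA and starts its transcription, was past 2-fold on the lower side. Tfam stood at 3.69 RPKM in Piwil1-/- and 8.84 RPKM in Piwil1+/-, a fold of 0.418 (0.373 to 0.467) from at least 446 and 1108 reads. The other 9 ranged up to 0.19 (Fastkd5), and the list median was 0.06.

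The templates of this machinery are the mRNAs encoded in mitochondria. Of the 8 at 1 RPKM or more, 7 had a log2 ratio below 0, beside 48.8% of all genes. The ratios of the 8 ran from -0.24 (mt-Nd4) to 0.11 (mt-Co1), with a median of -0.11 and none past 1.5-fold. The summed level of all 13 went the other way, at 1850 RPKM in Piwil1-/- and 1764 RPKM in Piwil1+/-. Most of that sum was mt-Co1. Counting intervals lay wholly below 1 for 5 of the 8 and above 1 for mt-Co1. The shares over all genes with read numbers were 26.9% below and 27.5% above. The other 5 were listed at or near 0, among them mt-Co3 at 0.0382 RPKM in Piwil1-/- and 0.0123 RPKM in Piwil1+/-, against 1522 and 1411 RPKM for mt-Co1 in the same libraries. Such genes cannot be read here. Among the 8 that were read, mt-Co2 was also far under mt-Co1, at 9.57 RPKM in Piwil1-/- and 10.3 RPKM in Piwil1+/-. Whether what lowers the listed levels also reaches these 8 was not tested. Of 23 nuclear subunits of the respiratory chain none was past 1.5-fold, from -0.22 (Ndufa8) to 0.39 (Cox5b), with a median of 0.02. Of 16 cytosolic translation factors none was past 1.5-fold, from Eif4g1 at -0.45 to Eef1b2 at 0.09, with a median of -0.01 and intervals wholly below 1 for 7.

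**Figure D5:**
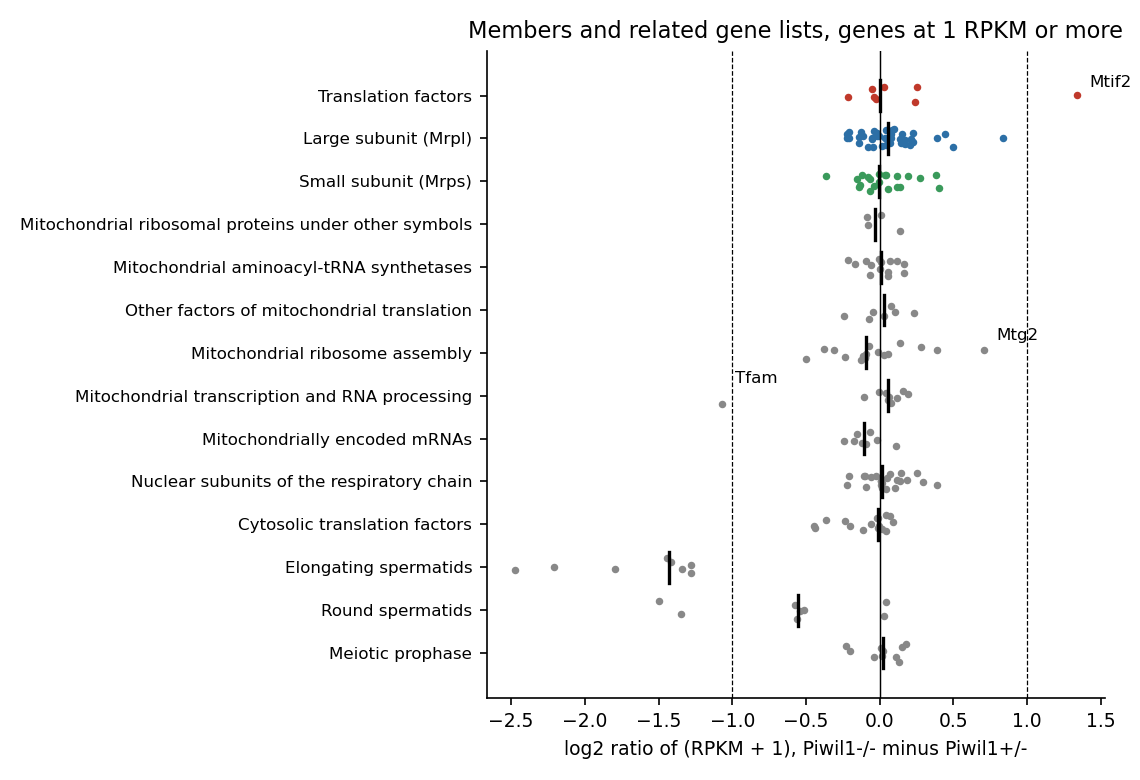
Log2 ratio of (RPKM + 1), Piwil1-/- minus Piwil1+/- (horizontal axis), of the members and of related gene lists (rows), 1 point per gene at 1 RPKM or more; black bars are medians, dashed lines 2-fold, and vertical scatter within a row carries no value. Mtif2 at 1.34 and Tfam at -1.07 stand outside the 2-fold lines among the mitochondrial lists, and all 8 elongating spermatid genes do. Of these 8, Prm2, Tnp2, Fscn3 and Spem1 reached 1 RPKM in Piwil1+/- only.

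Markers of spermatids moved with genotype, and their part in the results above was not tested. Of the elongating spermatid markers, 8 of 8 at 1 RPKM or more in either library were at least 2-fold lower in Piwil1-/- (median -1.43). The share over all genes was 1.96%. Prm2, Tnp2, Fscn3 and Spem1 passed that filter through Piwil1+/- only, so they could only read as lower. Akap4, Cabs1, Odf1 and Oaz3 were above 1 RPKM in both libraries. Prm2 was listed at 0 in Piwil1-/- against 1.42 RPKM in Piwil1+/-. The whole list of elongating spermatid markers summed to 57.0 RPKM in Piwil1-/- and 180.5 RPKM in Piwil1+/-. Prm1 and Tnp1 were also listed at 0 in Piwil1-/-. They were below 1 RPKM in Piwil1+/- too, at 0.0616 RPKM for Prm1 and 0.458 RPKM for Tnp1. Round spermatid markers had a median of -0.55 over 8 genes, 2 of them at least 2-fold lower (Spert and Fhl5), while Dpy19l2 and Spata16 had folds of 1.02 and 1.03. They summed to 233.9 RPKM in Piwil1-/- and 278.0 RPKM in Piwil1+/-. Meiotic prophase markers had a median of 0.02 over 10 genes and summed to 828.7 RPKM in Piwil1-/- and 771.6 RPKM in Piwil1+/-, with none past 1.5-fold. Medians were 0.01 for 4 spermatogonial, 0.10 for 5 Sertoli, -0.12 for 4 Leydig, 0.05 for 3 peritubular, -0.02 for 2 macrophage, -0.02 for 1 endothelial and -0.51 for 2 red blood cell genes. Among these somatic and spermatogonial markers, Hbb-bs, a beta globin, was past 1.5-fold, on the lower side. Insl3, a Leydig cell hormone gene, was listed at 0.0541 RPKM in Piwil1-/- and at 0 in Piwil1+/-.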

How the data were processed

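Testis RNA of Piwil1-/- and Piwil1+/- mice, 1 library each, was freed of ribosomal RNA before directional library preparation, per the labels' protocols. The authors deposited RPKM values per Ensembl gene, per the file headers. Bowtie, STAR and mm10 are named in the submitters' processing notes; for the settings, counter, annotation and strand use: not given in the sources used here. Reads of overlapping genes (29 members overlap another RefSeq gene) or of pseudogenes (listed for 4 members) therefore cannot be told apart.

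Symbols matched 22444 of 22808 identifiers, ignoring version suffixes. All 87 members matched RefSeq GRCm38.p6, the source of coordinates. Ratios are differences of log2 (RPKM + 1) over genes at 1 RPKM or more in either library. Library totals were found from the commonest ratio of low values and from 94 matches of RefSeq spans under 1500 bp. Only totals within a preset range were tried. Whole reads, the smallest that fit both printed values, followed for 86 members and for 91.9% of genes above 0. Among the 60 members with over 200 reads, 45 fitted lengths are multiples of 3, beside 62.0% of all such genes, so lengths may often be coding lengths.

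On simulated reads for 16554 genes in this comparison, 99.0% of 100 genes raised 2.6-fold passed 2-fold, and 1 of 9595 unchanged genes passed 1.5-fold. The totals were recovered exactly, but every span used to find them was set to the simulated gene length. That recovery therefore does not check the totals of the real libraries. Simulated reads hold no difference between animals.

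Members, lists and motifs were chosen with earlier results of these data known. Named are the 9 factors, the 5 highest and 5 lowest ratios and 3 highest and 3 lowest levels (in Piwil1+/-) of ribosomal proteins, members past 1.5-fold or within 5 Mb of Piwil1, the neighbours of Mtif2 and the extremes of each list. No test was possible with 1 library per genotype. Python 3.11.15, SciPy 1.17.1 and matplotlib 3.10.9 were used.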

Additional observations from a re-analysis of the deposited data

How the results depend on the processing

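The counts of members past 2-fold and 1.5-fold, the median log2 ratio of the members and the ratio of Mtif2 were recomputed with a pseudocount of 0.1 RPKM, with no filter, at 5 RPKM or more, after rescaling to a median of 0 or by a trimmed mean, and with a wider and a narrower set of members; the ratio without a pseudocount was added after seeing the data. Members at least 2-fold higher numbered 2 with a pseudocount of 0.1 RPKM and 2 without one, where Mrpl27 joined Mtif2, and 1 in the other settings. Members at least 1.5-fold higher numbered 4 with a pseudocount of 0.1 RPKM, 5 without one, 1 at 5 RPKM or more, where Mrpl27 was not tested, and 2 or 3 otherwise. A smaller pseudocount counts low genes more fully: over all genes, 68 were then at least 2-fold higher at 0.1 RPKM and 74 with none, against 23. No member was at least 1.5-fold lower under any of them. The Mtif2 log2 ratio stayed between 1.33 and 1.38 and the members' median between 0.03 and 0.05. The log2 ratio of Mrpl27 was 0.83 as reported, 1.34 with a pseudocount of 0.1 RPKM and 1.44 without one, within its wide counting interval; a filter leaves the ratio of a single gene as it is. Rescaling shifted log2 ratios by 0.0055 (median) and 0.0065 (trimmed mean). Depth limits the short members, whose smallest fitting reads go down to 13 among those tested. No paired analysis was possible because each genotype has 1 library.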
